A study of Mus musculus with 12 samples.

Results

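Bone marrow-derived macrophages (BMDMs) from wild-type C57BL/6 mice were exposed to the inhibitor I-BET151 (iBET) at 5.0 µM, and those given ovalbumin bound in an immune complex with IgG (IC) were compared with those given ovalbumin alone (Ova). The comparison took 6 of the 12 libraries of the series, chosen by their labels: 3 iBET IC and 3 iBET Ova libraries. The labels name 3 mice, A, B and C, and every group holds 1 library from each, so that each IC library has an Ova library from the same animal. The remaining 6 libraries are the DMSO Ova and DMSO IC groups, in which the solvent (5% DMSO per the labels) took the place of the drug. Marrow had been cultured with 100 ng/mL of M-CSF over 5 days (medium changed on day 3), and the exposure lasted 4 hours. Whether the drug preceded the stimulus is unsettled: the labels have both given at once, and the study's methods for these cells put iBET before IC. The complex was made with rabbit antibody against endotoxin-free ovalbumin, so the IgG that met the mouse receptors was of another species. The labels name no allele or transgene for any group, and BMDMs grown in M-CSF are a culture model and not macrophages taken from a tissue.

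Fc gamma receptors (FcγRs) bind the constant part of IgG. When many receptors are drawn together by a complex, Src family kinases and Syk signal through the FcR gamma chain to calcium, MAP kinases and the NF-kB factors, and the macrophage makes cytokines and chemokines. BET proteins read acetylated histones and help RNA polymerase to leave the promoter, and I-BET151 occupies their bromodomains. NF-kB is held in the cytoplasm by IkB proteins, and several of its targets, among them IkBα and A20, switch it off again. The comparison asks which transcripts respond to IC while BET proteins are inhibited.

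The 6 libraries held between 7.55 M and 17.4 M counts, and the ribosomal precursor Rn45s took 1.92% to 4.40% of them. All 10 macrophage markers passed the filter on low counts, and their summed level was 8079 to 9600 CPM (counts as a share of the library, scaled by TMM) in iBET Ova and 8459 to 9428 CPM in iBET IC. Neutrophil markers summed to 12.6 to 50.4 CPM in iBET Ova and 15.4 to 41.2 CPM in iBET IC, and those of B cells, T and NK cells, dendritic cells, and stroma and endothelium to at most 1.65 CPM. The 4 mast cell and basophil markers and the 4 erythroid markers were at 0 in the 6 libraries. Of the markers tested, 0 were called between the groups. One of the other 6 libraries, DMSO Ova of mouse A, gave 77.4% of its counts to Rn45s. It is in neither group compared here, but the 12 libraries share 1 estimate of the spread.

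With iBET present, IC raised a set of transcripts led by Irg1, an enzyme that makes itaconate, the cytokine Il1b, the neutrophil chemokines Cxcl1 and Cxcl2 and the feedback inhibitor Socs3, with fitted rises from 4.61-fold to 9.42-fold. It also raised a broad group of NF-kB inhibitors and subunits, by 1.69-fold to 2.78-fold. Il1b was near the floor of the data. With 1 library left out at a time, Il1b, Cxcl1 and Socs3 lost their calls in 8, 5 and 4 of 12 fits. Of 11468 genes tested, 40 were called by edgeR at an adjusted p under 0.05 (0.349%), 36 of them higher with IC (0.314%) and 4 lower (0.0349%). The rise was at least 2-fold in 18 genes and the fall in 2. In all 40 the 3 IC libraries lay beyond the 3 Ova libraries, as they did in 18.9% of all genes tested. It follows from this that all 40 moved the same way in 3 of 3 mice. The median log2 fold change was 1.05 over the 36 rises, -0.90 over the 4 falls and -0.01 over all genes tested. In bulk RNA, more cells that make a transcript and more transcript per cell cannot be told apart. Fitting mouse as a term, which uses the pairing of the libraries, called 85 genes (0.741%; 68 higher, 0.593%, and 17 lower, 0.148%), among them all 40. In what follows a call is edgeR's unless another tool is named.

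**Figure D1:**
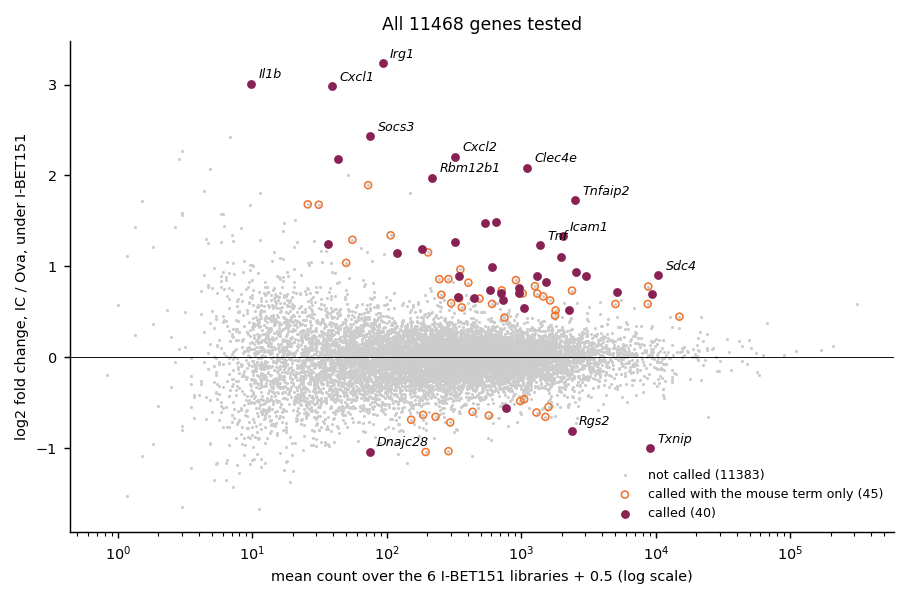
Log2 fold change of IC over Ova under I-BET151 (vertical axis) against the mean count over the 6 iBET libraries (horizontal axis, log scale) for the 11468 genes tested. Filled points are the 40 genes called, open circles the 45 called only with mouse as a term and grey points the others, and the 4 called falls lie at -0.56 to -1.04.

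Promoters of rising genes are shown because NF-kB factors bind the kappaB consensus and NF-kB regulators are prominent among the genes called. RefSeq windows of 300 bases around the transcription start on GRCm38.p6 were found for 30 of the 36 genes called higher and gave 35 windows. The kappaB consensus occurred on either strand in 13 of these 35 windows (37.1%), against 10.3% of the windows of all genes tested and 8.46% of all windows. The AP-1 letters TGANTCA occurred in 3 of the 35 (8.57%), against 5.06% and 7.81%. Among the 4 genes called lower, 1 of 4 windows held a kappaB match and 0 held the AP-1 letters. A match describes letters and does not show that a factor binds. The windows of the 4 genes with a match and the largest rises follow, 5′ to 3′ in the direction of the gene, with kappaB matches in capitals. Overlapping matches, on one strand or the other, are merged in the capitals, and these 4 windows held no AP-1 letters.
Cxcl1, chr5:90890995-90891294, plus strand: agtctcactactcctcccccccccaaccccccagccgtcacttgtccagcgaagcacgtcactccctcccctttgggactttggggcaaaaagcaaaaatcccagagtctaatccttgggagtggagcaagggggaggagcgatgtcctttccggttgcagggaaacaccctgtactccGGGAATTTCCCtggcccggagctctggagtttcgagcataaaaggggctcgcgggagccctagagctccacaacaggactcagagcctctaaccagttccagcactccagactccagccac
Cxcl2, chr5:90903649-90903948, plus strand: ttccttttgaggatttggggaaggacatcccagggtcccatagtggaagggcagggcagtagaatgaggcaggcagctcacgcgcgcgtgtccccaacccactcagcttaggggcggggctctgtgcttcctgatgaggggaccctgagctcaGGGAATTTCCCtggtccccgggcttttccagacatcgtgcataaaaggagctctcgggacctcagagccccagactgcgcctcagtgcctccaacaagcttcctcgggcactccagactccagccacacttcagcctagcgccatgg
Tnfaip2, chr12:111442411-111442710, plus strand: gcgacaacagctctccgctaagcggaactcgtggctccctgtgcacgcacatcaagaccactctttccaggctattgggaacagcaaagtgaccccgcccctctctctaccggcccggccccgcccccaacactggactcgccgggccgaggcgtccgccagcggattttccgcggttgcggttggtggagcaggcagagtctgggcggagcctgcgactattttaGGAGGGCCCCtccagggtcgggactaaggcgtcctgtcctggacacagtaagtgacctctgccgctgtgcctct
Tlr2, chr3:83841559-83841858, minus strand: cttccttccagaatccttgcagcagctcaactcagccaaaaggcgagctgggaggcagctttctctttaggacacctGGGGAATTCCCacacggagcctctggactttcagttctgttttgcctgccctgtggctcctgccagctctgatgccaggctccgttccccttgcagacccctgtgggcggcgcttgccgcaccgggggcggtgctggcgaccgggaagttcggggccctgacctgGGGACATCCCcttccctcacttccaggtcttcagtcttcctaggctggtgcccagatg
In Cxcl1 and Cxcl2 the same run of letters in capitals began 71 and 97 bases before the start. The match of Tnfaip2 began 24 bases before the start. Tlr2 held matches that began 173 and 8 bases before it. Nfkbia, Nfkbie, Tnfaip3, Tnip3, Nlrp3, Sdc4, Sod2, Zc3h12c and Prmt10 were the other genes called higher with a match.

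Among secreted factors, Il1b, Cxcl1 and Cxcl2 had the largest called rises. Cxcl1 (chr5:90891241-90893115) and Cxcl2 (chr5:90903871-90905938) are neighbouring genes for ligands of the receptor Cxcr2, 10756 bases apart on GRCm38. The level of Cxcl2 was 8.95, 7.39 and 11.3 CPM in the iBET Ova libraries of mice A, B and C and 47.9, 50.2 and 29.0 CPM in their iBET IC libraries. Cxcl1 was scarcer, at 0.926, 0.772 and 0.338 CPM with Ova and 4.86, 9.40 and 2.52 CPM with IC in mice A, B and C. In both genes every IC library exceeded every Ova library, and the rise was smallest in mouse C for Cxcl2 and largest in mouse B for both (log2 fold change 2.21, SE 0.22, adjusted p 8.32e-04 for Cxcl2; log2 fold change 2.98, SE 0.49, adjusted p 0.0195 for Cxcl1). Cxcl3, the third attractant of that cluster, had 0.0772, 0.221 and 0.113 CPM with Ova and 0.587, 0.872 and 0.240 CPM with IC and was not called (log2 fold change 2.07, adjusted p 0.325). Tnf, the cytokine that drives much of acute inflammation, was even between mice, with 70.5, 70.1 and 71.3 CPM with Ova and 156, 177 and 165 CPM with IC (log2 fold change 1.23, SE 0.16, adjusted p 0.00396). Its 3 Ova values were nearly equal, and its rise was 1.14, 1.33 and 1.20 log2 units in mice A, B and C. Il1b, the precursor of interleukin-1β, was near the floor of the data, with 4, 0 and 1 reads in the Ova libraries and 25, 16 and 10 in the IC libraries (0.309, 0 and 0.113 CPM with Ova and 1.33, 1.55 and 1.20 CPM with IC; log2 fold change 3.01, SE 0.54, adjusted p 0.0346). With single libraries left out, Cxcl2 and Tnf kept their calls in all 12 fits. Cxcl1 lost its call in 5 fits, with an adjusted p of up to 0.115 (without iBET Ova of mouse B). Il1b lost its call in 8 fits, with an adjusted p of up to 0.155 (without iBET Ova of mouse C).

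Of 17 chemokine genes tested, of 22 on the list, these 2 rose and 15 were not called, against 0.314% of all genes tested called higher. With mouse as a term 6 rose, the others being the inflammatory chemokines Ccl3 and Ccl4, Ccl7, a monocyte attractant, and Cxcl10, a ligand of Cxcr3. DESeq2 called 4, and 6 with mouse as a term. The median log2 fold change of the 17 was 0.85, the largest of the 16 lists, and the range was -0.46 (Ccl5) to 2.98 (Cxcl1). Ccl4 had 11.0, 7.61 and 12.7 CPM with Ova and 26.5, 16.7 and 26.5 CPM with IC (log2 fold change 1.15, adjusted p 0.229, and 0.00717 with mouse as a term). Ccl3 had 20.2, 15.4 and 25.4 CPM with Ova and 41.7, 28.8 and 48.8 CPM with IC (0.97, 0.127 and 9.92e-04). Mice differed more in the level of Ccl3 than in its rise, which was 1.04, 0.89 and 0.94 log2 units, and mouse B was lowest under both stimuli. Ccl7 had 65.3, 40.1 and 53.5 CPM with Ova and 121, 71.0 and 93.6 CPM with IC (0.85, 0.473 and 0.0162), and the IC library of mouse B was close to the Ova library of mouse A. Cxcl10 went from 2.81 ± 1.65 to 5.82 ± 2.68 CPM (1.04, 0.778 and 0.0489). Of 14 cytokine and growth factor genes tested, of 30 on the list, Tnf and Il1b rose, and Gdf15, a stress-induced member of the TGF-β family, joined them with mouse as a term (1.29, 0.0935 and 0.0166). The other 16, with Il6, Il1a, Il12b and Il23a among them, did not pass the filter on low counts. DESeq2 called Tnf, Il1b, Gdf15 and the TNF family ligand Tnfsf9, with or without mouse as a term. The 14 had a median of 0.36, and Il18 had the lowest value (-0.63, not called).

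**Figure D2:**
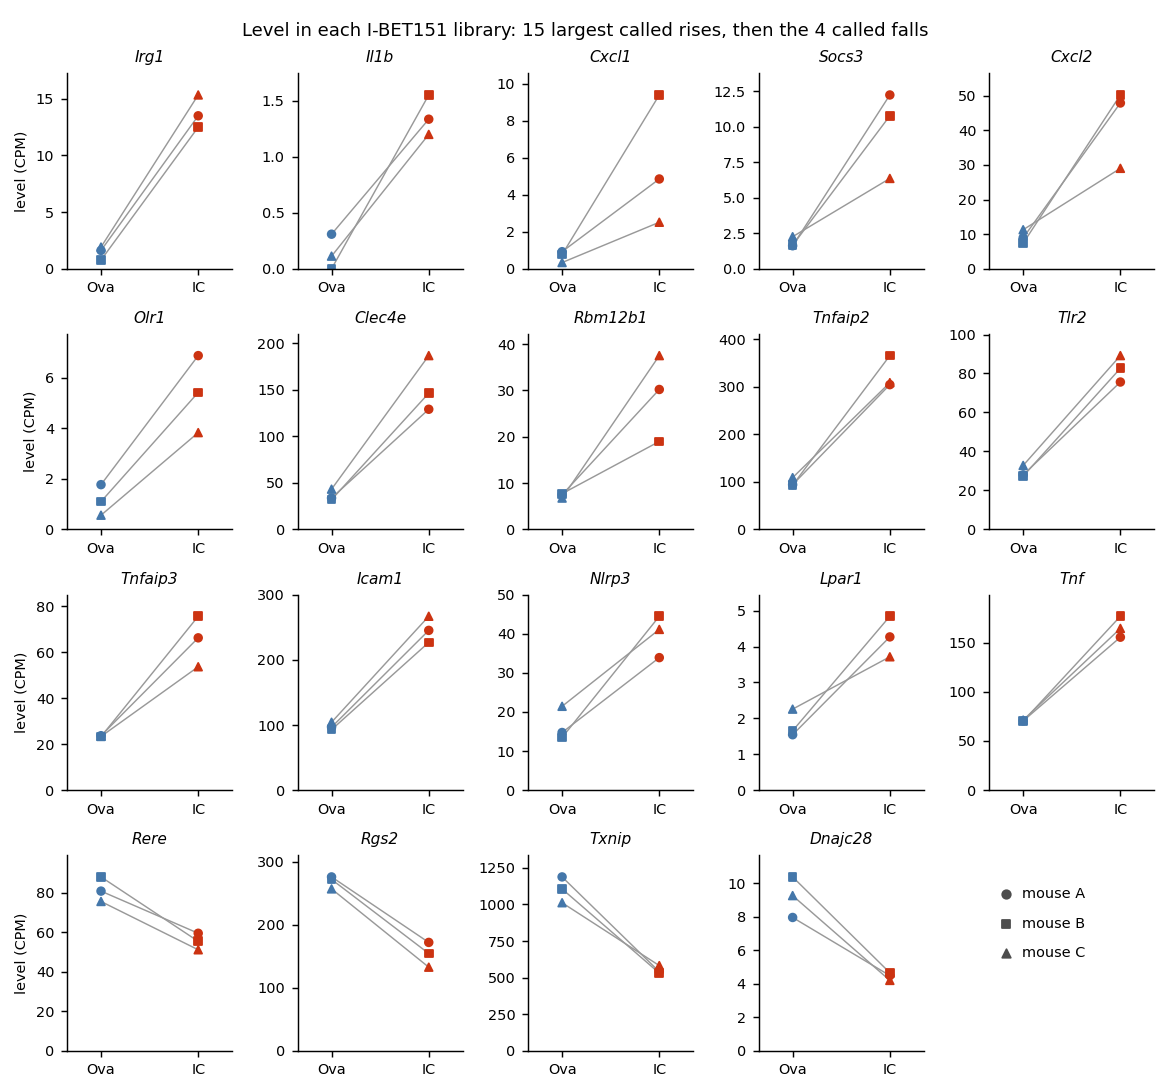
Level in CPM (vertical axes, from 0) in the 3 iBET Ova libraries (blue) and the 3 iBET IC libraries (red) for the 15 largest called rises and the 4 called falls, with lines joining libraries of 1 mouse. All lines of a gene run the same way, and the IC levels of Cxcl1 range from 2.52 to 9.40 CPM.

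In the NF-kB system the calls fell on inhibitors, an adaptor and DNA-binding subunits, and none of the kinase genes was called. Of 30 factors, kinases and inhibitors tested, 7 rose, 0 fell and 23 were not called, and with mouse as a term 9 rose. DESeq2 called 12, and 13 with mouse as a term. Over all genes tested, edgeR called 0.314% higher, and 0.593% with mouse as a term. DESeq2 called 103 of 11989 genes in either direction, and 176 of 11368 with mouse as a term. Tnfaip3 encodes A20, an enzyme that edits ubiquitin chains on NF-kB activators. It had 23.7, 23.3 and 23.4 CPM with Ova and 66.3, 75.7 and 53.7 CPM with IC in mice A, B and C (log2 fold change 1.48, SE 0.13, adjusted p 3.04e-04). Tnip3, which encodes a partner of A20, had 97.2, 103 and 117 CPM with Ova and 228, 240.0 and 211 CPM with IC (log2 fold change 1.10, SE 0.12, adjusted p 0.00118). In both genes the IC libraries stood well above the Ova libraries, and mouse C rose least. The inhibitors IkBα and IkBε followed. Nfkbia had 135, 143 and 164 CPM with Ova and 283, 321 and 247 CPM with IC (log2 fold change 0.94, SE 0.14, adjusted p 0.00935), and Nfkbie had 85.6, 74.2 and 70.6 CPM with Ova and 146, 151 and 132 CPM with IC (log2 fold change 0.89, SE 0.14, adjusted p 0.0118). Traf1, an adaptor of TNF receptors, went from 6.35 ± 1.13 to 14.0 ± 0.637 CPM (mean ± SD, n = 3; log2 fold change 1.14, adjusted p 0.00848). Of the 5 DNA-binding subunits, Relb went from 20.5 ± 2.53 to 38.0 ± 3.84 CPM (0.89, 0.0448) and Nfkb1, the precursor of p50, from 60.3 ± 4.80 to 102 ± 8.24 CPM (0.76, 0.00771). Nfkb2 was called with mouse as a term (0.73, adjusted p 0.0680 and 0.00946), as was the A20 partner Tnip1 (0.62, 0.0776 and 0.0213). Rel (0.49) and Rela (0.31) were not called in either edgeR fit, but DESeq2 called Rel. The kinase genes Chuk (0.20), Ikbkb (0.01), Ikbkg (0.00), Ikbke (0.32), Tbk1 (-0.00) and Map3k14 (-0.24) were not called, and Bcl3, a nuclear IkB protein, had 1.16 and was called by DESeq2 and not by edgeR. The median over the 30 was 0.43, against -0.01 over all genes tested, and 24 of 30 values were above 0. The lowest value was that of Tnip2 (-0.30, not called). In all 12 fits that lacked 1 library, Tnfaip3 and Tnip3 kept their calls. Without iBET Ova of mouse B, where their adjusted p was highest, Nfkbia had 0.0858 (call lost in 3 fits), Nfkbie had 0.0941 (call lost in 4 fits), Traf1 had 0.0735 (call lost in 3 fits), Relb had 0.311 (call lost in 10 fits) and Nfkb1 had 0.0754 (call lost in 2 fits). Nfkbia, Nfkbie and Ikbke were picked out in the study from these same data, so their place in the list is not independent evidence. This list, like the others, was chosen with earlier results of these data known.

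The genes called higher also included 5 for receptors or sensors, brought together here after they were called. Clec4e encodes Mincle, a C-type lectin that signals through the same FcR gamma chain as the activating FcγRs. Its level was 33.7, 32.0 and 43.2 CPM with Ova and 129, 146 and 186 CPM with IC (log2 fold change 2.08, SE 0.25, adjusted p 0.00380), and its rise differed little between mice. Tlr2, the receptor for bacterial lipoproteins, had 28.0, 27.4 and 32.8 CPM with Ova and 75.6, 82.7 and 89.2 CPM with IC (log2 fold change 1.49, SE 0.17, adjusted p 0.00157). It was the only one of 20 Toll-like receptor and adaptor genes tested that edgeR called, with or without mouse as a term, whereas DESeq2 also called the kinase Irak2 in both of its fits, and the median of the 20 was 0.13. Olr1, a lectin-like receptor for oxidized lipoprotein, was scarce, at 1.77, 1.10 and 0.564 CPM with Ova and 6.88, 5.43 and 3.84 CPM with IC (log2 fold change 2.18, SE 0.37, adjusted p 0.0220). Nlrp3, the sensor of an inflammasome that matures interleukin-1β, had 14.7, 13.5 and 21.4 CPM with Ova and 33.9, 44.5 and 41.1 CPM with IC (log2 fold change 1.27, SE 0.19, adjusted p 0.0118), and mouse C started highest and rose least. Lpar1, a receptor for lysophosphatidic acid, had 1.54, 1.65 and 2.26 CPM with Ova and 4.27, 4.84 and 3.72 CPM with IC (log2 fold change 1.25, SE 0.19, adjusted p 0.0125), again with the smallest rise in mouse C. In all 5 genes the lowest IC library exceeded the highest Ova library, with the smallest ratio in Nlrp3 and Lpar1. Clec4e and Tlr2 kept their calls whichever of the 12 libraries was left out. Calls were lost in 4 fits for Olr1, 3 for Nlrp3 and 4 for Lpar1, with the highest adjusted p without iBET Ova of mouse B, at 0.154, 0.0935 and 0.0941 in that order. When the 6 iBET libraries were fitted alone, Lpar1, Cxcl1 and Il1b were not called, and Olr1 and Cxcl1 were not called in limma.

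At the cell surface, Icam1, the ligand of the integrin LFA-1, had 96.7, 92.9 and 104 CPM with Ova and 245, 227 and 267 CPM with IC (log2 fold change 1.33, SE 0.14, adjusted p 0.00118), with rises of 1.34, 1.29 and 1.36 log2 units in mice A, B and C. Cd83, a marker of activated antigen-presenting cells, went from 9.02 ± 1.46 to 20.7 ± 3.85 CPM (log2 fold change 1.20, adjusted p 0.0313). Sdc4, a heparan sulphate proteoglycan, was among the most abundant of the genes called and went from 616 ± 34.0 to 1151 ± 82.6 CPM (0.90, 0.00565). Of 16 costimulation, adhesion and antigen presentation genes tested, Icam1 and Cd83 rose, and Cd40, a costimulatory receptor, rose with mouse as a term (0.86, adjusted p 0.141 and 0.0365). The class II genes H2-Ab1 (0.03), H2-Aa (0.23) and H2-Eb1 (0.35) and the ligands Cd80 (0.45) and Cd86 (0.15) were not called. DESeq2 called the same 3 genes, Icam1, Cd83 and Cd40. Of all genes tested, edgeR called 0.314% higher, and 0.593% with mouse as a term. The median of the 16 was 0.22. Omitting any 1 of the 12 libraries left the call of Icam1 in place. Without iBET Ova of mouse B, where their adjusted p was highest, Cd83 had 0.207 (call lost in 7 fits) and Sdc4 had 0.0624 (call lost in 1 fit).

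Metabolic and feedback genes held the largest single rise. Irg1 (Acod1 in GENCODE, chr14:103046977-103056573) encodes the enzyme that turns cis-aconitate into itaconate. Its level was 1.62, 0.772 and 1.92 CPM with Ova and 13.5, 12.5 and 15.3 CPM with IC (log2 fold change 3.24, SE 0.35, adjusted p 0.00148), so that the lowest IC library was over 6 times the highest Ova library. Sod2, the mitochondrial superoxide dismutase, went from 72.8 ± 0.428 to 106 ± 6.89 CPM (0.55, 0.0118). Of 17 itaconate, prostanoid, arginine and redox genes tested, these 2 rose, against 0.314% of all genes tested. With mouse as a term 5 rose, against 0.593%. The added genes were Ptgs2, the inducible cyclooxygenase (1.77, 2.65 and 3.61 CPM with Ova and 8.33, 10.9 and 10.3 CPM with IC; 1.89, adjusted p 0.112 and 0.00148), the glucose carrier Slc2a1 (0.70, 0.128 and 0.0108) and sulfiredoxin, Srxn1 (0.58, 0.444 and 0.00879). The prostaglandin synthase Ptges had 1.80 without a call, and Arg1 had -0.21. DESeq2 called 5 of the 17, and 8 with mouse as a term. The list's median was 0.54. Socs3, which blocks cytokine receptors that use JAK kinases, had 1.62, 1.65 and 2.26 CPM with Ova and 12.2, 10.8 and 6.35 CPM with IC (log2 fold change 2.43, SE 0.37, adjusted p 0.0118). The other 5 tested SOCS genes, Socs1 (0.66) and Socs4 to Socs7 (0.10 to 0.37), were not called. Among 12 fits that each omitted a library, Irg1 kept its call in every one. Calls were lost in 4 fits for Socs3 and 5 for Sod2, with the highest adjusted p without iBET Ova of mouse B, at 0.0935 and 0.0917 in that order. Irg1, Tnf and Cxcl2 were also picked out in the study from these data. The study described the expression of Irg1 and Jag1 as abrogated by iBET. It listed Tnf, Nfkbia, Nfkbie, Cxcl2 and Ikbke within a dampening of IC-induced changes. Fitted here, log2 fold changes under iBET and in DMSO were 3.24 and 2.94 for Irg1 and 1.23 and 1.09 for Tnf. They were 2.21 and 1.94 for Cxcl2, 0.894 and 0.897 for Nfkbie and 0.94 and 1.13 for Nfkbia. For Jag1 they were 0.35 and 1.31, and for Ikbke 0.32 and 0.83.

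Several rises fell outside the lists. Tnfaip2, a TNF-induced gene whose product shapes membrane protrusions, was abundant and had 94.1, 93.1 and 109 CPM with Ova and 304, 365 and 308 CPM with IC (log2 fold change 1.72, SE 0.13, adjusted p 1.17e-04), the smallest adjusted p of the comparison. Rbm12b1 (chr4:12140264-12146731) encodes an RNA-binding protein and lies beside its close relative Rbm12b2. It had 7.49, 7.72 and 6.77 CPM with Ova and 30.2, 19.0 and 37.5 CPM with IC (log2 fold change 1.98, SE 0.21, adjusted p 0.00118), with close Ova values and rises of 1.99, 1.28 and 2.44 log2 units in mice A, B and C. Rbm12b2 had 25.4, 29.4 and 28.2 CPM with Ova and 36.5, 35.4 and 44.2 CPM with IC and was not called (0.48, adjusted p 0.229), and how the counting split reads between them is uncertain. Mllt6, a partner of the histone methyltransferase Dot1l, went from 34.2 ± 3.79 to 68.4 ± 7.22 CPM (1.00, 0.00223). Abundant genes with small rises were Marcksl1, an actin-binding substrate of protein kinase C, from 178 ± 19.2 to 329.7 ± 21.9 CPM (0.89, 0.00565), Ehd1, of endocytic recycling, from 333 ± 10.1 to 548 ± 24.0 CPM (0.72, 0.00935), and Plek, the phagocyte substrate pleckstrin, from 623 ± 49.7 to 1012 ± 117 CPM (0.70, 0.0313). The remaining 8 rose by 0.52 to 0.83 log2 units: the secretory kinase Fam20c, the zinc finger factor Plagl2, Ifrd1, the Regnase family member Zc3h12c, the syntaxin Stx11, the arginine methyltransferase Prmt10 (Prmt9 in GENCODE), Gsap, which acts on gamma-secretase, and Rassf4. Their adjusted p ran from 0.00565 to 0.0305. When libraries were omitted singly, Tnfaip2, Rbm12b1 and Mllt6 kept their calls in 12 of 12 fits. Without iBET Ova of mouse B, where their adjusted p was highest, Marcksl1 had 0.0642 (call lost in 1 fit), Ehd1 had 0.0901 (call lost in 4 fits), Plek had 0.260 (call lost in 9 fits), Fam20c had 0.0642 (call lost in 1 fit), Plagl2 had 0.196 (call lost in 7 fits), Ifrd1 had 0.0901 (call lost in 5 fits) and Rassf4 had 0.201 (call lost in 7 fits). Zc3h12c lost its call in 5 fits, with an adjusted p of up to 0.0872 (without iBET IC of mouse B). Without iBET IC of mouse A, where their adjusted p was highest, Stx11 had 0.0959 (call lost in 4 fits) and Gsap had 0.107 (call lost in 5 fits). Prmt10 lost its call in 8 fits, with an adjusted p of up to 0.160 (without iBET IC of mouse C). Ifrd1, Zc3h12c, Plek, Prmt10, Gsap, Rassf4, Tnfaip2, Icam1 and Il1b overlap an annotated gene on the opposite strand, and the use of strand in the counting is not given in the sources used here, so reads of the 2 genes of a pair cannot be told apart.

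Few genes fell. Txnip, an alpha-arrestin that binds thioredoxin and limits glucose uptake, was the most abundant of them, with 1188, 1106 and 1012 CPM with Ova and 540.2, 531 and 582 CPM with IC (fall of 1.00 log2 units, SE 0.13, adjusted p 0.00380). Its highest IC library stood well below its lowest Ova library. Rgs2, which shortens signals from Gq-coupled receptors, had 276, 272 and 257 CPM with Ova and 172, 155 and 133 CPM with IC (log2 fold change -0.81, SE 0.12, adjusted p 0.0118). Dnajc28, of the DnaJ chaperone family, had 7.95, 10.4 and 9.25 CPM with Ova and 4.48, 4.65 and 4.19 CPM with IC (log2 fold change -1.04, SE 0.18, adjusted p 0.0237). Rere, a nuclear co-regulator of the atrophin family, had 80.7, 87.9 and 75.5 CPM with Ova and 59.4, 55.3 and 51.1 CPM with IC (log2 fold change -0.56, SE 0.11, adjusted p 0.0498), close to the threshold. The groups of these genes did not overlap, and mice B and C fell at least as far as mouse A in all but Txnip. Txnip kept its call under each of the 12 omissions of a library. Calls were lost in 4 fits for Rgs2, 6 for Dnajc28 and 10 for Rere, with the highest adjusted p without iBET Ova of mouse B, at 0.0901, 0.167 and 0.330 in that order. Rere was also not called with DESeq2 size factors, with either other filter on low counts, without Rn45s or in limma. Txnip, Dnajc28 and Rere overlap annotated genes on the opposite strand. For Txnip this is Gm15441, with 20.3, 20.5 and 12.3 CPM with Ova and 8.27, 4.26 and 11.4 CPM with IC (-1.16, adjusted p 0.305).

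Of 20 tested genes of the alpha-arrestin family and of FoxO-linked quiescence, Txnip fell, 0 rose and 19 were not called, and 18 of the 20 values were below 0, with a median of -0.38. With mouse as a term 4 fell: Txnip, the arrestins Arrdc3 (-0.72, adjusted p 0.0935 and 0.0362) and Arrdc4 (-0.63, 0.112 and 0.0379), and Ccng2, a cyclin of resting cells (-0.66, 0.172 and 0.0413). Txnip, Arrdc4 and Arrdc3 belong to 1 gene family. DESeq2 called 4 of the 20, and 5 with mouse as a term. Of all genes tested, edgeR called 0.0349% lower, and 0.148% with mouse as a term, and their median was -0.01. Fbxo32 had the lowest value of the list (-1.26, not called). Of 9 regulators of G protein signalling tested, Rgs2 fell in both edgeR fits and 8 were not called, whereas DESeq2 called 2, Rgs2 and Rgs19, and with mouse as a term 3, with Rgs1 added. The median of the 9 was -0.44 and 8 values were below 0, with Rgs16 (0.19) the exception.

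Fitting mouse as a term added 45 genes, 32 higher and 13 lower, with adjusted p of 0.0557 to 0.865 before. The 12 largest with a mean count of at least 50 were Ptgs2, Ccl4, Ccl3, Ccl7, Gdf15 and Cd40, described above, and 6 more. Kdm6b, a demethylase of lysine 27 of histone H3, had 5.79, 5.29 and 3.61 CPM with Ova and 13.8, 14.3 and 9.23 CPM with IC (1.34, adjusted p 0.0557 and 0.00134). Slc11a2, an iron carrier, went from 17.2 ± 1.50 to 31.2 ± 4.39 CPM (0.86, 0.135 and 0.0365). Ier3, an immediate early gene, went from 24.8 ± 1.67 to 43.8 ± 1.02 CPM (0.82, 0.0680 and 0.0138). Plaur, the urokinase receptor, went from 81.2 ± 21.1 to 139.6 ± 15.8 CPM (0.78, 0.284 and 0.0164). Both falls among the 12 were larger than 2-fold. Cytip, which binds the integrin regulator cytohesin, had 45.4, 32.1 and 23.2 CPM with Ova and 18.6, 17.1 and 13.4 CPM with IC (-1.03, 0.128 and 0.00394). Lpar6, another lysophosphatidic acid receptor, had 28.9, 26.0 and 13.2 CPM with Ova and 13.6, 10.8 and 8.51 CPM with IC (-1.04, 0.258 and 0.00840). In Cytip and Lpar6 the levels differed between mice under both stimuli, mouse C being lowest, and IC was lower than Ova within each mouse.

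The receptors for IC themselves were not called. Fcgr1, the high-affinity activating receptor, had 146, 124 and 84.7 CPM in the iBET Ova libraries of mice A, B and C and 147, 93.6 and 79.0 CPM in their iBET IC libraries. The signalling subunit Fcer1g had 619, 591 and 397 CPM with Ova and 593, 403 and 392 CPM with IC, the low-affinity activating receptor Fcgr3 211, 177 and 191 CPM with Ova and 198, 143 and 177 CPM with IC, the activating receptor Fcgr4 14.6, 6.51 and 5.30 CPM with Ova and 13.3, 8.72 and 6.47 CPM with IC and the inhibitory receptor Fcgr2b 12.4, 9.59 and 12.9 CPM with Ova and 10.8, 10.8 and 12.1 CPM with IC. The groups overlapped in all 5 genes. The fitted log2 changes were -0.15 (SE 0.28) for Fcgr1, -0.21 (0.20) for Fcer1g, -0.16 (0.13) for Fcgr3, 0.11 (0.39) for Fcgr4 and -0.06 (0.19) for Fcgr2b, and the signs of Fcgr1, Fcgr2b and Fcgr4 changed when single libraries were left out. Fcgr3 and Fcer1g were lower with IC in 3 of 3 mice, with adjusted p of 0.848 and 0.876. Of the 25 genes of the receptors and their proximal signalling tested, 0 were called in edgeR, with or without mouse as a term, and 3 had an unadjusted p under 0.05, as did 860 of all genes tested (1219 with mouse as a term). DESeq2 called 0 of the 25, and 2 with mouse as a term: the kinase Syk and Malt1, a protease of NF-kB signalling. The median was 0.01, from -0.48 (Pik3cd) to 0.50 (Fgr).

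In edgeR the other lists held at most 1 call, with or without mouse as a term. For scale, 860 of all 11468 genes tested had an unadjusted p under 0.05 in edgeR without that term. Of 26 interferon-stimulated genes tested, 0 were called in edgeR with or without mouse as a term 0 were called by DESeq2 and 0 had an unadjusted p under 0.05, with a median of -0.11 and a range of -0.41 (Gbp3) to 0.36 (Isg15). The same counts of 0 held for 32 lysosome and phagosome genes, with a median of 0.05 and a range of -0.26 (Cd68) to 0.27 (Atp6v1h). Of 29 AP-1 and immediate early genes, 0 were called and 10 had an unadjusted p under 0.05, Ier3 was called with mouse as a term, DESeq2 called 2 (Ier3 and Junb), and 6 with mouse as a term, and values ran from -0.92 (Nr4a1) to 1.05 (Fosl1). Of 21 MAP kinase phosphatase and mRNA decay genes, 0 were called in either edgeR fit and 8 had an unadjusted p under 0.05 (median 0.10, up to 1.20 in the phosphodiesterase Pde4b, which was the 1 gene called by DESeq2, against 5 with mouse as a term). Of 21 death receptor and Bcl-2 family genes, 0 were called and 5 had an unadjusted p under 0.05, Cflar, which blocks caspase 8, was called with mouse as a term and in both DESeq2 fits (0.46, adjusted p 0.0662 and 0.0387), and values ran from -0.93 (Bmf) to 1.39 (Bcl2a1b). Of 7 Notch genes, 0 were called in either edgeR fit or by DESeq2 and 2 had an unadjusted p under 0.05 (median 0.22).

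**Figure D3:**
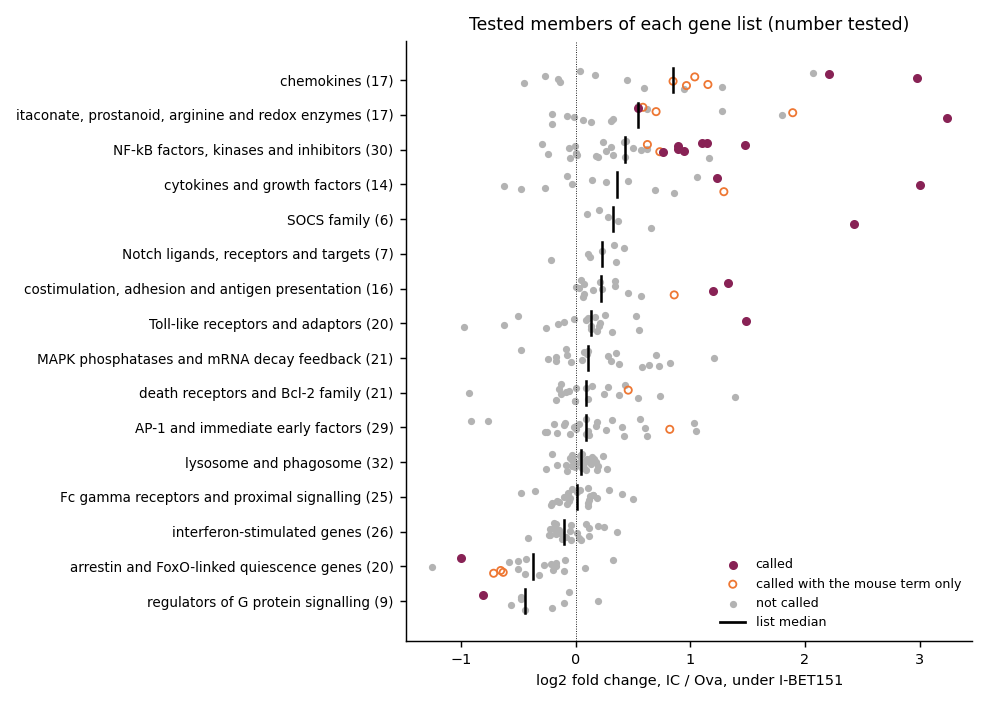
Log2 fold change of IC over Ova under I-BET151 (horizontal axis) for the tested members of 16 gene lists, ordered by their median (black line). Filled points were called and open circles were called only with mouse as a term; the chemokine list has the highest median (0.85) and the regulators of G protein signalling the lowest (-0.44).

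In DMSO, the comparison of IC with Ova called 140 genes (1.22%), and its values are set beside those under iBET, with the libraries of each comparison its own. The DMSO Ova group, used here and in the interaction below, holds the library of mouse A that gave 77.4% of its counts to Rn45s. That library had 1.77 M other counts. Of the 40 genes called under iBET, 26 were called in DMSO as well, and all 40 had the same sign there. Genes called higher under iBET had a median of 1.05 under iBET and 0.89 in DMSO, but they were chosen on the first of these values. With mouse as a term, 315 genes were called in DMSO (2.75%), 29 of the 40 among them. The 14 genes not called in DMSO without that term were Il1b (1.89 in DMSO), Cxcl1 (1.95), Rbm12b1 (0.16), Nlrp3 (0.83), Cd83 (0.52), Tnip3 (0.37), Nfkb1 (0.40), Plagl2 (0.40), Plek (0.53), Prmt10 (0.41), Rassf4 (0.23), Rere (-0.36), Rgs2 (-0.21) and Dnajc28 (-0.59). Of these, Nlrp3, Plek and Cxcl1 were called in DMSO with mouse as a term (adjusted p 0.00265, 0.0247 and 0.0384), which left 11. The difference between the arms was tested as an interaction, that is, as the log2 change under iBET less the log2 change in DMSO. In edgeR 0 of 11468 genes were called for it, with or without mouse as a term, 292 (2.55%) had an unadjusted p under 0.05 (443 with mouse as a term), and DESeq2 called 4, or 6 with mouse as a term. Hence no gene of the 14 was shown by edgeR, on all 12 libraries, to respond differently. Rbm12b1, however, was among the genes that DESeq2 called (1.83, adjusted p 0.000402 in DESeq2). Of the 40, 8 had an unadjusted p under 0.05. The difference was 1.82 for Rbm12b1 (adjusted p 0.388), 0.78 for Tnfaip2, 0.73 for Tnip3, 0.67 for Cd83, 0.36 for Nfkb1, 0.29 for Rassf4, -0.34 for Sod2 and -0.60 for Rgs2, the last 7 with adjusted p of 0.997 to 1.0.

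**Figure D4:**
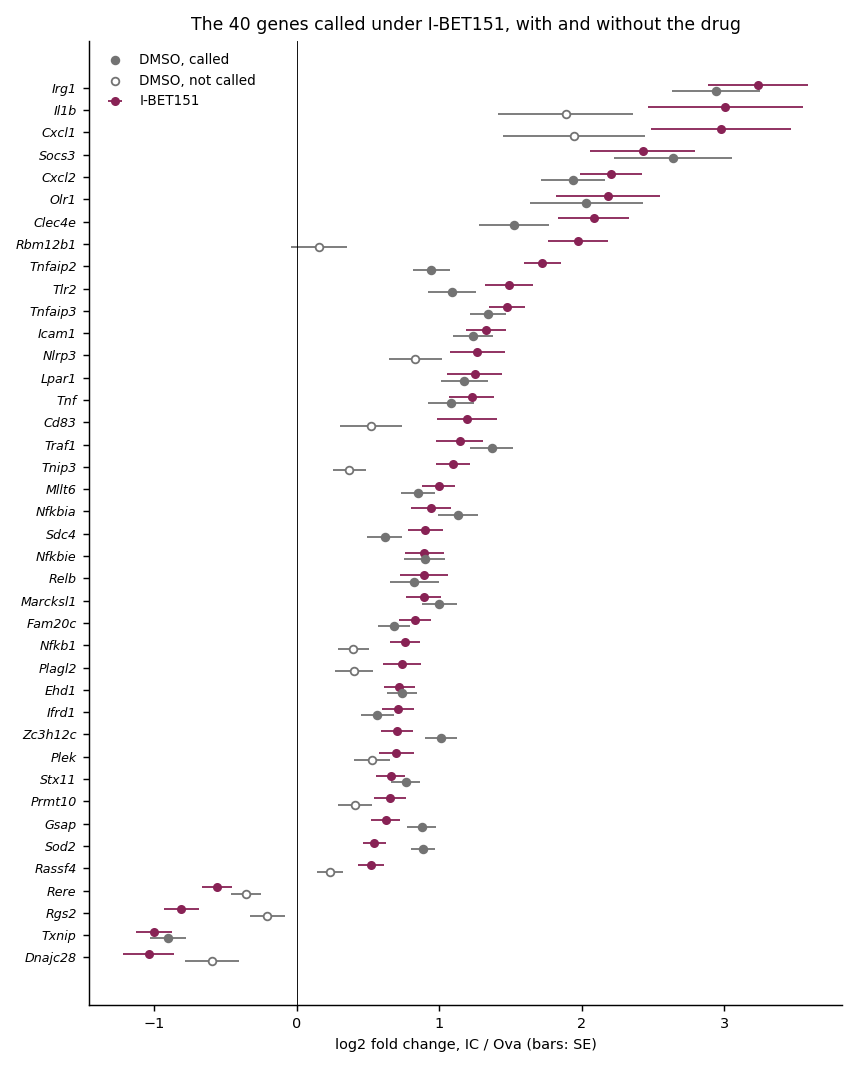
Log2 fold change of IC over Ova (horizontal axis, bars are SE) for the 40 genes called under I-BET151, in the iBET libraries (dark) and in the DMSO libraries (grey, filled where called there). The 40 pairs have the same sign, and Rbm12b1 is farthest apart, at 1.98 and 0.16.

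The levels in all 12 libraries stood behind these differences. Rbm12b1 in the DMSO libraries had 33.4, 40.2 and 40.2 CPM with Ova and 45.9, 44.6 and 37.8 CPM with IC, above the iBET Ova libraries in every mouse (log2 fold change of iBET over DMSO in Ova -2.38), whereas the iBET IC libraries of mice A and C came near these levels. Tnfaip2 had 82.7, 87.3 and 93.1 CPM with Ova and 142, 195 and 171 CPM with IC in DMSO, similar to iBET with Ova and lower than iBET with IC. Tnip3 had 273, 234 and 239 CPM with Ova and 365, 309 and 287 CPM with IC in DMSO, above its iBET values under Ova. Rgs2 had 344, 393 and 339 CPM with Ova and 355, 270.1 and 309 CPM with IC in DMSO, where the groups overlapped. Of the genes picked out in the study, Jag1, a Notch ligand, had 134, 141 and 99.5 CPM with Ova and 160.2, 186 and 132 CPM with IC under iBET, where the groups overlapped, and 112, 117 and 102 CPM with Ova and 248, 306 and 269 CPM with IC in DMSO. Its log2 fold change was 0.35 (adjusted p 0.625) under iBET and 1.31 (adjusted p 0.00170) in DMSO, and the interaction was -0.96 (adjusted p 0.997 in edgeR and 0.000388 in DESeq2 with mouse as a term). Ikbke, a kinase related to Tbk1, had 22.3, 23.4 and 24.7 CPM with Ova and 29.6, 31.2 and 27.2 CPM with IC under iBET and 28.8, 36.8 and 41.4 CPM with Ova and 60.0, 67.6 and 66.1 CPM with IC in DMSO. Its log2 fold change was 0.32 (adjusted p 0.549) under iBET and 0.83 (adjusted p 0.00583) in DMSO, with an interaction of -0.50 (adjusted p 1.0). Irg1 had 3.08, 5.67 and 8.95 CPM with Ova and 39.0, 45.8 and 66.9 CPM with IC in DMSO, so its iBET levels were lower under both stimuli. Its log2 fold change of IC over Ova was 3.24 under iBET and 2.94 in DMSO. The interaction of 0.29 (SE 0.46) was not called, and an SE of this size does not show that the responses were equal.

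**Figure D5:**
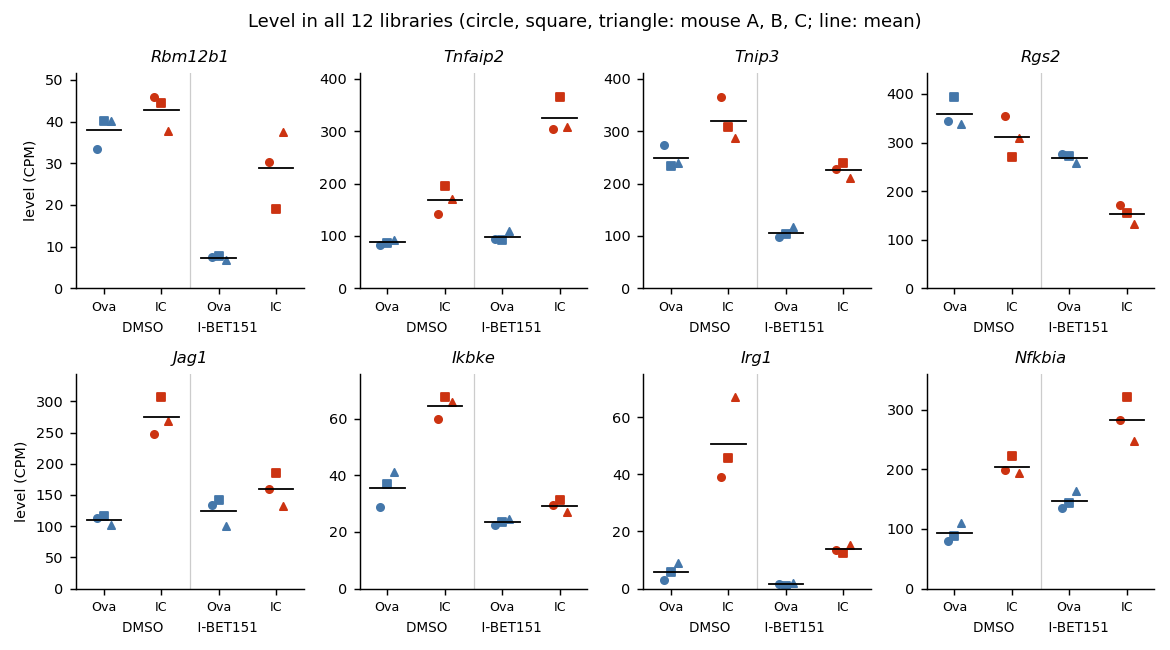
Level in CPM (vertical axes, from 0) in the 12 libraries for 8 genes, with Ova in blue, IC in red, marker shape for mouse and a line at each group mean (n = 3). Jag1 under iBET lies between 99.5 and 186 CPM, below the 248 to 306 CPM of DMSO IC.

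The genes called higher with IC differed in their level relative to DMSO. Of the 36 genes called higher, 11 were higher and 9 lower in iBET IC than in DMSO IC, and 16 were not called, against 34.8% of all genes called in that comparison. In Ova, 9 were higher and 13 lower with iBET, against 31.3% of all genes called. These comparisons share libraries with the IC response and are not independent of it. Nlrp3, Traf1, Lpar1 and Irg1 were lower with iBET under IC (log2 fold change -1.64, -2.17, -2.13 and -1.88), whereas Sdc4, Plek, Tnfaip2 and Marcksl1 were higher (1.59, 1.28, 0.95 and 0.85). Txnip, which fell with IC, was higher with iBET under both stimuli (1.32 with IC and 1.42 with Ova).

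The mice differed in the size of the response. The median change of the 36 rises was 1.12, 1.21 and 0.89 log2 units in mice A, B and C, against -0.00, -0.00 and -0.01 over all genes tested. In the first principal component of the 6 libraries, with 32.8% of the variance, both libraries of mouse C lay apart from the others. The second, with 28.4%, placed the 3 Ova libraries (8.71 to 21.8) apart from the 3 IC libraries (-23.7 to -2.45). Without the libraries of mouse B, 0 of 11484 genes were called in edgeR (289 at an unadjusted p under 0.05). The adjusted p of the 40 then ran from 0.0604 to 1.0. That fit, like the fit without mouse C, kept the DMSO Ova library of mouse A in the shared estimate of the spread. Why the calls were lost was not tested. Without mouse C, 9 of the 40 were called, namely Clec4e, Cxcl2, Irg1, Nfkbia, Nlrp3, Tlr2, Tnfaip2, Tnfaip3 and Tnip3, and without mouse A all 40 (305 genes in all). Mouse A gave the DMSO Ova library rich in Rn45s, and without that library alone 56 genes were called, the 40 among them.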

How the data were processed

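Per the study's methods, BMDMs were lysed in culture, and their RNA was made into libraries with a stranded SMARTer kit for pico input. The authors deposited raw counts per gene for 12 libraries and a table of normalized values. Per the labels, CASAVA, FastQC, Trim Galore, HISAT2 and featureCounts were used with mm10; tool versions, the annotation and the strand setting are not given in the sources used here. The normalized values are a signal that the authors made by scaling: they equalled the deposited counts divided by DESeq2 size factors (largest relative gap 4.89e-15).

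Of 24421 symbols, 11468 passed filterByExpr (minimum count 10). The counts of all 12 libraries were fitted with edgeR 4.0.16 (R 4.3.3, TMM scaling, robust quasi-likelihood test, 1 mean per group), iBET IC was contrasted with iBET Ova, and a gene was called at a Benjamini-Hochberg adjusted p under 0.05. Every adjusted p is from edgeR unless another tool is named. The SE was taken as the log2 fold change over √F. CPM used TMM library sizes, and the change within a mouse was its log2 CPM (prior count 2) in IC less that in Ova. Mice A, B and C pair the libraries because the labels name the same animal. Deviations from group means correlated at -0.0725 to 0.542 within a mouse (18 pairs) and -0.499 to 0.271 between mice. The ranges overlap. iBET Ova of mouse B correlated at 0.0918 with iBET IC of its own mouse and at 0.187 with that of mouse A. iBET Ova of mouse A correlated at -0.0506 and -0.0725 with the DMSO libraries of its own mouse, and at 0.234 and 0.271 with those of mouse B. A fit with mouse as a term is given beside the counts of calls it changed.

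Named genes were the 40 called, list members called with or without mouse as a term, the genes the study picked out, and the 12 genes of largest change called only with mouse as a term at a mean count of at least 50; Cxcl3, Rbm12b2, Gm15441 and ends of list ranges were added after their values were seen, as were other list members named with values. The comparison and the gene lists were chosen with earlier results of these data known. Promoters are from RefSeq (GRCm38.p6), and gene positions from GENCODE vM21 (GRCm38), matched for 11359 of 11468 genes. The edgeR fit was tested on simulated data. Alternatives used DESeq2 1.42.0, limma 3.58.1 (log2 of the signal plus 1), sva 3.50.0, other filters, removal of Rn45s and omission of libraries or mice. Depth was 7.55 M to 17.4 M counts in the 6 iBET libraries. Genes with few counts, such as Il1b, carry large errors.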

Additional observations from a re-analysis of the deposited data

Results flagged for a closer look

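In 6 genes the response to IC differed between the iBET and DMSO libraries by a DESeq2 test of that difference, although edgeR called 0 of 11468 genes for it. A positive value below means a larger log2 response under iBET. Rbm12b1, which encodes an RNA-binding protein, had 1.83 (SE 0.33, adjusted p 0.000402) in DESeq2 and 1.81 (SE 0.33, adjusted p 0.000388) in DESeq2 with mouse as a term. Tnfaip2 had 0.78 (SE 0.18, adjusted p 0.0448) in DESeq2 with mouse as a term. Jag1, the Notch ligand, had -0.95 (SE 0.17, adjusted p 0.000388) in the same fit. Jdp2, Il1rn and Acsl1 were named after their values were seen. For Jdp2, a repressor of the AP-1 family, DESeq2 gave -1.26 (SE 0.26, adjusted p 0.0142) and, with mouse as a term, -1.23 (SE 0.26, adjusted p 0.00878). Il1rn, the antagonist of the interleukin-1 receptor, had -0.89 (SE 0.20, adjusted p 0.0447) and -0.87 (SE 0.17, adjusted p 0.000968) in these fits. Acsl1, which activates long-chain fatty acids, had -0.93 (SE 0.21, adjusted p 0.0498) and -0.94 (SE 0.20, adjusted p 0.0121). In edgeR the adjusted p of the difference was 0.388 for Rbm12b1, 0.642 for Jdp2, 0.701 for Il1rn and for Acsl1, and 0.997 for Jag1 and Tnfaip2.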

How the results depend on the processing

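The count of genes called, 40, was 85 with the replicate block (mouse) in edgeR, 99 when the 6 iBET libraries were fitted alone, 218 alone with the block, 130 with 1 surrogate variable, 103 in DESeq2, 176 in DESeq2 with the block, and 19 at an adjusted p under 0.01. It was 40 with DESeq2 size factors and without Rn45s, 43 without a filter, 33 with at least 10 counts in every library, where Relb and Rere were tested and not called, and 27 in limma, of which 26 were among the 40. Limma did not call Plek, Socs3, Ifrd1, Cd83, Nfkbie, Plagl2, Rere, Gsap, Cxcl1, Rassf4, Olr1, Relb, Prmt10 and Zc3h12c. Leaving out libraries or mice gave 0 (without mouse B) to 305 (without mouse A), and single libraries gave 12 to 56. Genes called for the interaction, 0 in edgeR, were 4 in DESeq2 (Acsl1, Il1rn, Jdp2 and Rbm12b1), 6 in DESeq2 with the block, which added Jag1 and Tnfaip2, and 0 to 1 with libraries or mice left out (Rbm12b1, 2.04, without iBET IC of mouse B).

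Of the 40 genes, 12 kept their call in all 12 fits that left out 1 library, and 24 in the 11 other alternatives, and 0 reversed. The sign reversed only in Fc receptor genes that were not called: over all omissions Fcgr1 ranged from -0.46 to 0.032, Fcgr2b from -0.18 to 0.049 and Fcgr4 from -0.23 to 0.71. Of 1838 values of single genes under an alternative, 1505 kept direction and side of the threshold, 232 lost the call, 93 gained one and 8 reversed. The causes were not tested.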
